A study of Bos taurus with 48 samples.

Results

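The genes described here encode ion channels, water channels and the sodium pump in bovine endometrium, the lining of the uterus. They are potassium channels and their accessory subunits, voltage-gated sodium and calcium channel subunits, the epithelial sodium channel, CFTR, the CLC chloride channels and exchangers, TRP cation channels, aquaporins, and the alpha and beta subunits of the sodium pump. Members were chosen by symbol alone, from the gene name or description given by the array, with KCNK12 left out. This gave 159 genes on 168 of the 21475 non-control probes. Endometrium was collected from lactating Holstein Friesian cows, of New Zealand and North American strains mixed, on day 17 of the reproductive cycle, after all oestrous cycles had been synchronised. Of 22 cows, 12 had received a grade 1 embryo on day 7 and were pregnant, and 10 were cyclic and had received no embryo, so that transfer itself and pregnancy cannot be told apart. The labels grade the embryo as large (over 20 cm and over 75 mg, 7 cows) or small (under 20 cm and under 40 mg, 5 cows), and call 6 pregnant cows fertile and 6 sub-fertile without saying how. Each cow gave caruncular endometrium, the raised sites where the placenta attaches, and intercaruncular endometrium, the glandular tissue between them.

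Channels and pumps set the ion and water content of the fluid in the uterine lumen, on which the elongating conceptus depends before it attaches. In an epithelium, the sodium pump on the basolateral side maintains the gradients that drive sodium uptake through the epithelial sodium channel and chloride secretion through CFTR, potassium channels recycle potassium and hold the membrane voltage, and aquaporins pass water. In the muscle and vessels of the uterus, many of the same families set excitability and calcium entry.

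On each 2-colour oligonucleotide array, Cy5 carried 1 sample and Cy3 a reference mixed from the RNA of all 44 samples, never the reverse. A level is therefore the log2 ratio of a sample to this pool, and levels of different genes are not compared. The cow was the replicate. A gene was said to have passed the threshold when limma gave at least a 1.5-fold difference and a Benjamini-Hochberg adjusted p under 0.05 over 14690 tested probes. Most of the 12 slides held 1 tissue from cows of 1 state. One cyclic and 1 pregnant cow had all of their arrays scanned in the last of 3 batches and are called the late-scanned cows here. Repeat arrays of other cows shared a slide with the late-scanned pregnant cow. Both tissues of the cyclic cow and the intercaruncular tissue of the pregnant cow had the lowest correlation with the other samples of their group, −0.04 to 0.45, against 0.38 to 0.83 for the other cows of those groups. The caruncular sample of the pregnant cow, at 0.67, lay within its group. Some members are not reported by name here and enter the counts alone. The tissue labels were checked on marker genes fixed as lists. FOXA2, a regulator of uterine glands, differed by −2.11 on the log2 scale between caruncular and intercaruncular tissue (adjusted p = 1.22e-07). STC1, the other gland marker tested, differed by −0.46 (adjusted p = 0.0168), under the fold required. Of the 5 markers of the conceptus on the array, PAG11 was well above background in 0 of 44 samples, and PAG2 and TKDP1 in 2 each. The other 2 had enough signal to be tested, and neither passed with pregnancy. Their median pregnancy difference was −0.07 in caruncular and −0.28 in intercaruncular tissue.

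A minority of these genes could be tested. The test required a spot well above background, with a signal of 80 units or more, in no fewer than 22 samples, a condition met by 38.1% of the members' probes and by 68.4% of all probes. Of the 159 genes, 64 had a tested probe, and 56 of these were well above background in all 44 samples. The other 95 genes were not tested: 15 were well above background in no sample, 65 in 1 to 21 samples, and 15 in 22 or more samples but without the required signal. The sodium pump was the family with the largest share tested, 6 of 8 genes. The activated potassium channels followed with 5 of 7, and the CLC family with 4 of 7. Voltage-gated families were the least seen, with 11 of 37 potassium channel genes, 6 of 23 calcium channel subunits and 2 of 11 sodium channel subunits tested. Among the TRP channels, 10 of 21 genes were tested, and among the aquaporins 4 of 8.

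**Figure D1:**
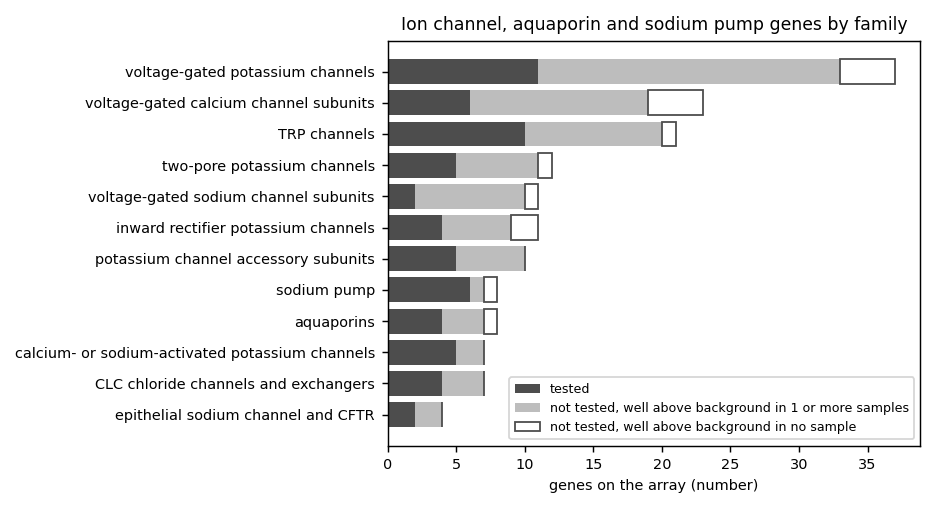
The horizontal bars count the genes of each family on the array, split into those tested, those not tested but well above background in at least 1 sample, and those well above background in no sample. The voltage-gated potassium channels are the longest bar, with 11 of 37 genes tested, while 6 of 8 sodium pump genes were tested.

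Several genes of epithelial transport fell below the test's requirement. SCNN1G, the gamma subunit of the epithelial sodium channel, was well above background in 35 of 44 samples, and SCNN1B, its beta subunit, in 2. CLCN3, an endosomal chloride-proton exchanger, was well above background in 11 of 12 pregnant and 6 of 10 cyclic caruncular samples, and in 10 of 12 pregnant and 0 of 10 cyclic intercaruncular samples. That split is a count of spots near the background and was not tested. AQP9, a channel for water and glycerol, was well above background in 12 samples, TRPV6, an epithelial calcium entry channel, in 6, CLCN5 in 4, and CACNA1C, the pore of the L-type calcium channel, in 0. No probe matched AQP1.

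Pregnancy was associated with lower levels of several potassium channel genes and of TRPC4, with higher levels of a smaller number of genes. In caruncular tissue 10 of 64 members passed the threshold (15.6%), 3 of them higher and 7 lower in pregnant cows. Over all tested probes the share was 9.99%, and more of those were higher than lower. In intercaruncular tissue 9 members passed (14.1%), 2 higher and 7 lower, against 7.24% of all tested probes. The differences between the members' shares and the background were not tested. In all 14 genes passed in at least 1 tissue and 5 in both, and 11 of the 14 are reported by name here. Of the genes that passed in both, KCNE3 and KCNJ16 were lower in pregnant cows and KCNK7 was higher. The median difference over the members was −0.13 on the log2 scale in caruncular and −0.19 in intercaruncular tissue, against −0.04 and −0.02 over all tested probes. Without the late-scanned cows, 11 caruncular members passed, with ATP1B1 gained, and 10 intercaruncular members, with KCNJ2 and KCNJ8 gained and TRPC4 lost. The share of all tested probes without these cows is not given, so these shifts are not read as particular to the members.

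**Figure D2:**
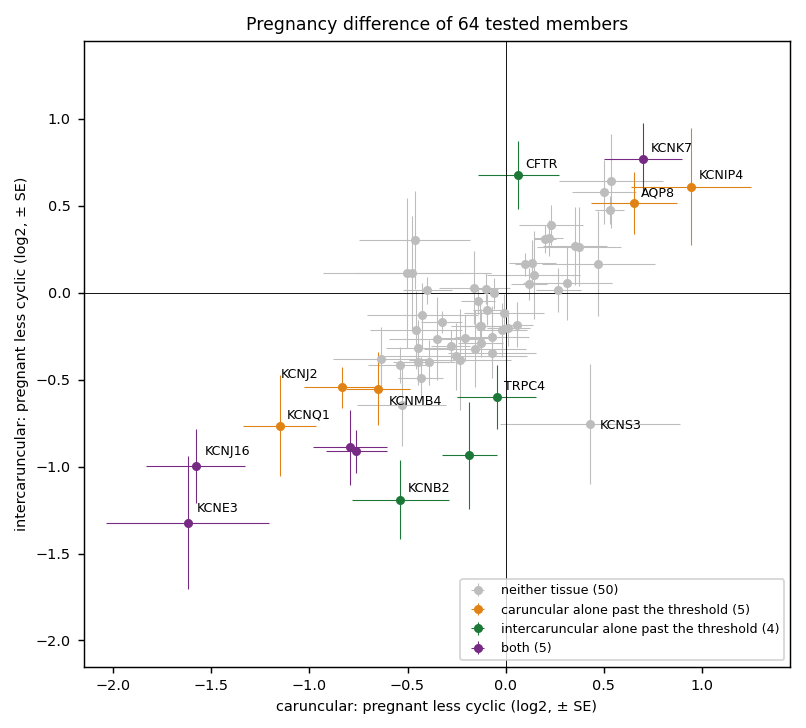
Each point is one of the 64 tested members, with the pregnant less cyclic difference (log2) in caruncular tissue on the horizontal axis and in intercaruncular tissue on the vertical axis, and bars of 1 limma standard error. KCNE3 and KCNJ16 lie farthest to the lower left, 5 members passed the threshold in both tissues (purple), and KCNS3 is the member for which the difference between the tissues passed its own test.

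Of the potassium channel genes, KCNJ16, whose product Kir5.1 joins other inward rectifier subunits and tunes their sensitivity to pH, showed a clear fall. In caruncular tissue its level ran from −2.02 to −0.64 (median −1.21) in the 12 pregnant cows and from −1.03 to 1.33 (median 0.36) in the 10 cyclic cows. All 12 pregnant cows lay below the cyclic mean, and 7 below the lowest cyclic cow. The difference was −1.58 (SE 0.25, 2.99-fold, adjusted p = 0.000104). In intercaruncular tissue the pregnant cows ran from −0.79 to 0.48 (median −0.40) and the cyclic cows from −0.34 to 1.69 (median 0.61), again with 7 pregnant cows below the lowest cyclic cow. There the fall was 2.00-fold (SE 0.21 on the log2 scale, adjusted p = 0.00236).

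KCNQ1 and KCNE3 encode the pore and an accessory subunit of a channel complex that recycles potassium at the basolateral side of secretory epithelia. KCNQ1 in caruncular tissue ran from −2.05 to −0.78 (median −1.54) in pregnant and from −0.97 to 0.52 (median −0.46) in cyclic cows. The groups were almost separate, with 11 of 12 pregnant cows below the lowest cyclic cow, and the difference was −1.15 (SE 0.19, 2.22-fold, adjusted p = 0.000122). In intercaruncular tissue 10 of 12 pregnant cows lay below the lowest cyclic cow, but 1 pregnant cow at 1.85 lay above all others. The intercaruncular difference of −0.77 did not pass the threshold (SE 0.29, adjusted p = 0.0648). KCNE3 in caruncular tissue ran from −3.12 to −0.56 (median −2.05) in pregnant and reached 2.30 (median −0.55) in cyclic cows. Cyclic cows were widely spread and 7 pregnant cows lay below all of them. The fitted fall was 3.07-fold (log2 −1.62, adjusted p = 0.00629), with the spot well above background in 6 of 12 pregnant and 10 of 10 cyclic samples, so that its size rests in part on pregnant samples near the background. Under a stricter filter on dim spots KCNE3 was not tested. In intercaruncular tissue the spot was well above background in every sample. KCNE3 there ran from −2.04 to 0.72 (median −0.60) in pregnant and from −1.16 to 2.31 (median 0.54) in cyclic cows, overlapping widely, and differed by −1.32 (SE 0.38, adjusted p = 0.0179).

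KCNJ2, which encodes Kir2.1 and holds the resting potential of excitable cells, ran in caruncular tissue from −1.60 to 0.17 (median −0.75) in pregnant and from −0.15 to 0.97 (median 0.28) in cyclic cows. Every pregnant cow was below the cyclic mean, and the difference was −0.83 (SE 0.20, 1.78-fold, adjusted p = 0.00331). In intercaruncular tissue its difference of −0.54 had an adjusted p of 0.00254 but was 1.46-fold, just under the fold required. KCNMB4, the beta 4 subunit of the large-conductance calcium-activated potassium channel, ran in caruncular tissue from −1.12 to 0.06 (median −0.69) in pregnant and from −0.62 to 0.79 (median −0.05) in cyclic cows. It was lower by 1.57-fold in pregnant cows (adjusted p = 0.00564), and its intercaruncular difference of −0.55 did not pass (adjusted p = 0.0682). KCNMA1, the pore of that channel, did not pass in either tissue, at −0.35 (adjusted p = 0.291) and −0.26 (adjusted p = 0.464). KCNB2, the delayed rectifier Kv2.2, passed in intercaruncular tissue, where it ran from −1.32 to 0.15 (median −0.54) in pregnant and from −0.40 to 1.97 (median 0.61) in cyclic cows. All 12 pregnant cows lay below the cyclic mean there (log2 −1.19, SE 0.23, 2.28-fold, adjusted p = 0.000904). In caruncular tissue KCNB2 differed by −0.54 without passing (adjusted p = 0.11).

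TRPC4, a cation channel opened downstream of phospholipase C, was lower in intercaruncular tissue, from −0.88 to 0.05 (median −0.30) in pregnant against −0.47 to 1.21 (median 0.11) in cyclic cows. Its fall of 1.51-fold (adjusted p = 0.0259) was the one just inside the fold required, and without the late-scanned pregnant cow it was under it. In caruncular tissue the groups lay on each other (log2 −0.05, 95% interval −0.46 to 0.37). TRPC6 changed by less than the fold required in both tissues, at −0.54 (adjusted p = 0.0157) and −0.42 (adjusted p = 0.00774). TRPC1, TRPM7 and the osmosensitive TRPV4 did not pass in either tissue.

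ATP1B3, a beta subunit that brings the sodium pump to the membrane, changed by less than the fold required in both tissues. It fell by 0.43 in caruncular (SE 0.11, adjusted p = 0.00754) and by 0.49 in intercaruncular tissue (SE 0.12, adjusted p = 0.0075), with all 12 pregnant cows below the cyclic mean in both. ATP1B1, the common beta subunit, differed by −0.42 and −0.13, and ATP1B2 by −0.46 and −0.21 in caruncular and intercaruncular tissue. Neither passed in either tissue, but ATP1B1 in caruncular tissue passed without the late-scanned cyclic cow, whose value of −1.86 was the lowest of all (log2 −0.64, adjusted p = 0.0393).

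Of the genes that were higher, KCNK7, a two-pore potassium channel family member not known to conduct by itself, passed in both tissues. In caruncular tissue it ran from −0.83 to 1.21 (median −0.14) in pregnant and from −1.50 to −0.18 (median −0.68) in cyclic cows. In intercaruncular tissue it ran from −0.38 to 1.31 (median 0.49) and from −0.91 to 0.45 (median −0.20). The groups overlapped, but 11 of 12 pregnant cows exceeded the cyclic mean in each tissue, with a rise of 1.62-fold (SE 0.20, adjusted p = 0.0118) and 1.70-fold (SE 0.21, adjusted p = 0.0117). KCNIP4, a calcium-binding protein that attaches to Kv4 channels, ran in caruncular tissue from −1.10 to 1.47 (median 0.23) in pregnant and from −2.64 to 0.22 (median −0.74) in cyclic cows. It was 1.92-fold higher in pregnant cows (adjusted p = 0.0251), while in intercaruncular tissue the difference of 0.61 did not pass (adjusted p = 0.207).

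AQP8, a channel for water and ammonia, was tightly held in cyclic cows and spread upward in pregnant ones. In caruncular tissue it ran from −0.52 to −0.29 (median −0.36) in cyclic and from −0.36 to 2.12 (median 0.01) in pregnant cows, 11 of which lay above every cyclic cow. The rise was 1.57-fold (log2 0.65, adjusted p = 0.0296). In intercaruncular tissue it ran from −0.77 to −0.21 (median −0.42) in cyclic and from −0.55 to 1.26 (median −0.02) in pregnant cows, a difference of 0.52 (adjusted p = 0.0431) that was under the fold required. The other aquaporins did not reach the threshold: AQP3, which also passes glycerol, differed by 0.14 and 0.10, AQP4 by −0.46 and 0.30, and AQP5 by −0.45 and −0.32 in caruncular and intercaruncular tissue. CFTR, the cyclic AMP-activated chloride channel of the apical membrane, was higher in intercaruncular tissue of pregnant cows, from −1.22 to 0.32 (median −0.33) against −1.65 to −0.10 (median −0.88). Of 12 pregnant cows 11 exceeded the cyclic mean (1.60-fold, SE 0.20, adjusted p = 0.0183). In caruncular tissue CFTR differed by 0.07 (95% interval −0.36 to 0.49).

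**Figure D3:**
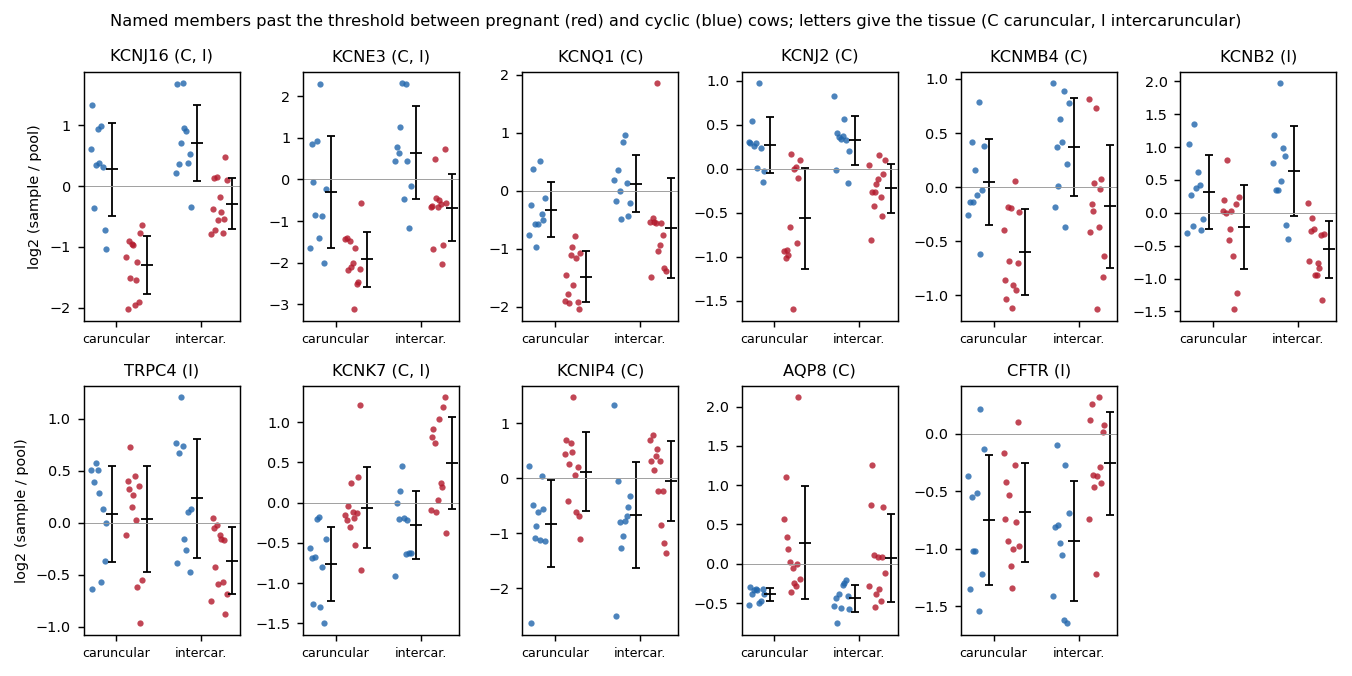
For the 11 named members past the threshold in at least 1 tissue, each dot is the level (log2 of sample over pool) in 1 cow, cyclic in blue and pregnant in red, with black bars for the mean ± SD of each group. KCNQ1 in caruncular tissue shows 11 of 12 pregnant cows below the lowest cyclic cow, AQP8 in cyclic caruncular samples lies within −0.52 to −0.29, and the single intercaruncular KCNQ1 value at 1.85 stands above the other pregnant cows.

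A smaller difference, that of KCNC1, was more uniform between cows. KCNC1, the fast delayed rectifier Kv3.1, ran in caruncular tissue from −0.09 to 0.41 (median 0.16) in pregnant and from −0.59 to −0.06 (median −0.37) in cyclic cows. In both tissues 11 of 12 pregnant cows lay above the highest cyclic cow. Its rise of 1.44-fold in caruncular tissue (adjusted p = 1.56e-05) had the smallest adjusted p of the members there, and in intercaruncular tissue it rose by 1.39-fold (adjusted p = 0.000286). SCNN1A, the alpha subunit of the epithelial sodium channel, fell by 0.45 in caruncular (adjusted p = 0.0128) and 0.40 in intercaruncular tissue (adjusted p = 0.0301). KCNJ8, the Kir6.1 pore of the ATP-sensitive channel of vascular muscle, rose by 0.50 (adjusted p = 0.0269) and 0.58 (adjusted p = 0.0291), the latter just under the fold required. In intercaruncular tissue its cyclic cows, at −1.44 to 0.50, spanned all pregnant cows, at −0.42 to 0.46. With the adjusted p alone, 22 of 64 members passed in each tissue. In caruncular tissue 15 were lower and 7 higher, and in intercaruncular tissue 14 lower and 8 higher. Of all tested probes 26.9% passed in this way in caruncular and 20.3% in intercaruncular tissue. No CLC channel and no calcium channel subunit passed with the fold condition in either tissue.

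Markers of smooth muscle moved with the same comparison. Of 6 such genes, 4 were lower in pregnant cows in each tissue and 0 higher, with a median difference of −0.90 in caruncular and −0.93 in intercaruncular tissue. Their mean level ran from −1.45 to 0.52 in pregnant and from −0.38 to 1.14 in cyclic caruncular samples, and from −1.70 to 0.02 and from −1.11 to 0.82 in intercaruncular samples. Of 6 endothelial markers 2 were lower in each tissue, and of 6 stromal markers 1 in caruncular and 3 in intercaruncular tissue. Of 6 epithelial markers, 1 was higher and 2 lower in caruncular tissue, and 1 higher and 1 lower in intercaruncular tissue. The part of these cell types in the members' differences was not tested. In tissue samples of this kind fewer cells of a type and less RNA per cell cannot be told apart.

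Few slides held cows of both states, so the members were also read within those slides. On the caruncular slide with 3 pregnant cows and 1 cyclic cow, 9 of the 10 members that had passed differed in the same direction as over all cows, KCNJ16 by −1.92 and KCNQ1 by −0.94. KCNIP4 was the exception at −0.59. A second slide held 2 pregnant caruncular arrays, 1 of them from the late-scanned cow, and 1 cyclic array. There all 10 kept their direction, KCNQ1 at −1.81 and KCNIP4 at 0.07. On the intercaruncular slide, 8 of 9 did, KCNB2 at −1.58 and KCNJ16 at −0.49. With a single cyclic array on each slide, the same cow on 2 of them, these are values without a test. The same cows were part of the fit by which the members passed, so agreement in direction is in part built in. When slide entered the fit as a fixed block, no member passed in either tissue. As a random block it left 8 of the 10 caruncular members, without AQP8 and KCNIP4. In intercaruncular tissue 4 members passed with it, 3 of them from the 9: KCNB2 and KCNK7 still passed, KCNE3, KCNJ16, CFTR and TRPC4 no longer did, and KCNJ2 was gained (−0.61).

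Between the tissues the members leaned toward intercaruncular endometrium. Taking the caruncular less intercaruncular difference within each cow, 12 of 64 members passed the threshold (18.8%), 3 higher and 9 lower in caruncular tissue, against 14.9% of all tested probes. The median over the members was −0.16, against −0.02 over all tested probes, and 43 of 64 lay below 0 (67.2%, against 52.3% of all tested probes). With adjusted p alone 42 of 64 members passed, 8 higher and 34 lower, and 70.4% of all tested probes passed.

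KCNH6, a voltage-gated potassium channel of the erg family, had the largest difference. Within a cow it ran from −2.56 to −0.03 (median −1.71) and was below 0 in all 22 cows, a 3.09-fold lower level in caruncular tissue (SE 0.12, adjusted p = 5.36e-10). AQP4, a water channel of basolateral membranes, ran from −2.80 to 0.53 (median −1.36) and was below 0 in 19 of 22 cows (2.14-fold, adjusted p = 4.51e-06). KCNK5, a two-pore channel sensitive to external pH, was 2.12-fold lower and below 0 in 21 cows (adjusted p = 8.47e-07). ATP1B2, the beta 2 pump subunit, was 2.00-fold lower and below 0 in 21 cows (adjusted p = 1.12e-07). SCNN1A was 1.59-fold lower, with 21 of 22 cows below 0 (adjusted p = 2.27e-08). ATP1B1 differed by −0.07.

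Of the genes that fell with pregnancy, KCNE3, KCNJ16 and KCNQ1 were also lower in caruncular tissue, by 2.13-fold, 1.65-fold and 1.56-fold (adjusted p = 5.25e-06, 6.27e-07 and 0.000351). Below 0 were 19, 20 and 17 of 22 cows. The size for KCNE3 rests in part on pregnant caruncular samples near the background, as did its fall with pregnancy. KCNJ16 and KCNQ1 passed this threshold within the pregnant cows, at −1.01 and −0.83, and not within the cyclic cows, at −0.43 and −0.45. The change of the tissue difference with pregnancy itself did not pass for KCNJ16 (−0.58, adjusted p = 0.114) or KCNQ1 (−0.39, adjusted p = 0.517).

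Of the 12 members, 3 were higher in caruncular tissue. TRPC1, a subunit of receptor- and store-operated channels, ran within a cow from 0.20 to 2.73 (median 1.67), above 0 in all 22 cows (2.76-fold, adjusted p = 1.78e-09). TRPM7, a magnesium and calcium channel fused to a kinase, ran from −0.26 to 1.40 (median 0.99), above 0 in 20 cows (1.84-fold, adjusted p = 6.85e-09). CACNA1G, the pore of the T-type calcium channel Cav3.1, ran from −0.48 to 1.81 (median 1.02), above 0 in 21 cows (1.92-fold, adjusted p = 9.05e-08). None of these was among the members that passed between pregnant and cyclic cows.

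**Figure D4:**
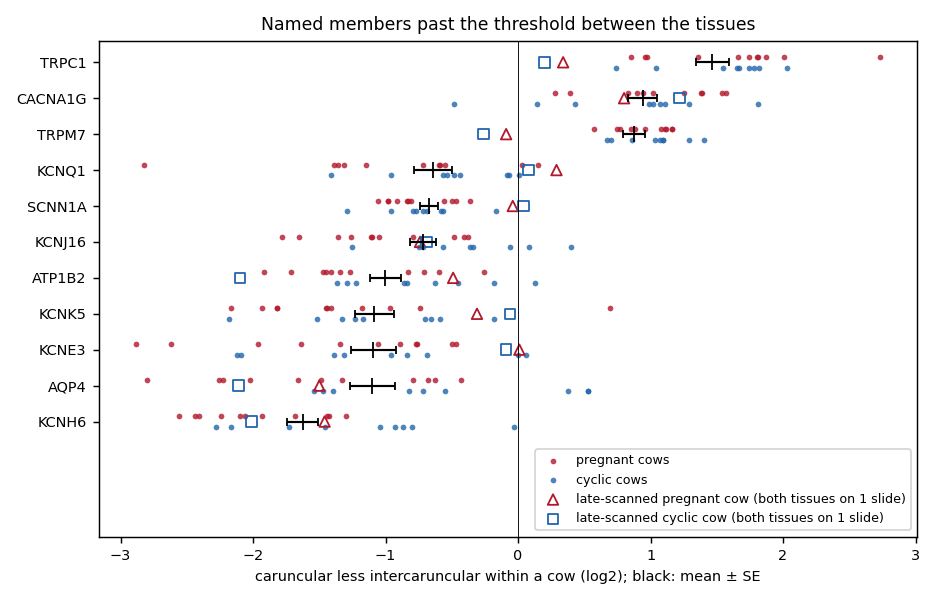
Each mark is the caruncular less intercaruncular difference (log2) within 1 cow for the 11 named members of 12 past the threshold, red for pregnant and blue for cyclic cows, and the black bar is the mean ± SE from limma. The open triangle and square are the late-scanned pregnant and cyclic cows, each with both tissues on 1 slide. For TRPC1, TRPM7, SCNN1A and KCNK5 they sit closer to 0 than most other cows, and for TRPM7 both lie below 0.

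Slide and scan date followed tissue in all but 2 cows, so for the other 20 cows tissue and slide cannot be told apart. In the late-scanned pregnant and cyclic cows, each with both tissues on 1 slide, 9 and 8 of the 12 members kept the direction seen over all cows. KCNH6 (−1.46 and −2.01), AQP4 (−1.50 and −2.11), KCNJ16 (−0.74 and −0.69) and CACNA1G (0.80 and 1.22) were of similar size there. TRPC1 was 0.34 and 0.20, SCNN1A −0.04 and 0.04, KCNK5 −0.31 and −0.06, and KCNE3 0.01 and −0.09, all far smaller than over all cows. SCNN1A in the cyclic cow and KCNE3 in the pregnant cow had the opposite sign to that over all cows. TRPM7, at −0.09 and −0.26, and KCNQ1, at 0.29 and 0.08, lay opposite to their direction over all cows in both. Of these 4 arrays 3 correlated least with their group. Leaving them out left the count at 12, and with the slide or the scan date as a fixed block, which reads only these cows, 0 members passed. Markers of other cells moved too: 4 of 6 epithelial markers were lower and 1 higher in caruncular tissue (median −0.78), 4 of 6 stromal markers were higher (median 0.68), and 3 of 6 smooth muscle markers were higher (median 0.50). Their part in the members' tissue differences was not tested.

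Whether the pregnancy effect differed between the tissues was tested directly as the change in the within-cow difference. The share with an adjusted p under 0.05 was 1.56% of the members and 1.02% of all tested probes. KCNS3, the silent subunit Kv9.3 that joins Kv2 channels, was the 1 such member. In caruncular tissue it ran from −1.89 to 2.05 (median 0.54) in pregnant and from −1.81 to 1.85 (median −0.32) in cyclic cows. In intercaruncular tissue it ran from −2.45 to 0.73 (median −0.72) and from −1.11 to 1.53 (median −0.18). The groups overlapped in both tissues and neither pregnancy difference passed, at 0.43 (adjusted p = 0.513) and −0.75 (adjusted p = 0.126), but they lay in opposite directions, and the caruncular effect exceeded the intercaruncular one by 1.18 (SE 0.29, adjusted p = 0.0463). Over the alternatives its adjusted p ran from 0.0173 to 0.686. The test of the difference did not pass for TRPC4, KCNB2 and CFTR, which had passed in intercaruncular tissue alone: TRPC4 was at 0.55 (adjusted p = 0.0514), KCNB2 at 0.65 (adjusted p = 0.0738), and CFTR at −0.61 (adjusted p = 0.146). Without the late-scanned cyclic cow, TRPC4 and KCNB2 passed with adjusted p of 0.0357 and 0.0315. Without the late-scanned pregnant cow, TRPC4 passed at 0.0409, and KCNB2 did not.

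Embryo size was compared among the 12 pregnant cows, and no member passed in either tissue. By limma at an adjusted p under 0.05, 0.0% of all tested probes passed in caruncular and 3.69% in intercaruncular tissue. At an unadjusted p under 0.05, 7 members (10.9%) were below it in caruncular and 11 (17.2%) in intercaruncular tissue. Of all tested probes 6.9% and 21.6% were. AQP8 in intercaruncular tissue came nearest. It ran from −0.12 to 1.26 (median 0.11) in the 7 cows with a large embryo and from −0.55 to −0.28 (median −0.39) in the 5 with a small one, without overlap. The latter lay within the range of the cyclic cows. The difference was 0.81 (SE 0.22, 95% interval 0.35 to 1.28, adjusted p = 0.0563), and without the late-scanned pregnant cow, which had a large embryo, the adjusted p was 0.0181. In caruncular tissue AQP8 overlapped by size, from −0.20 to 2.12 with a large and from −0.36 to 0.57 with a small embryo.

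ATP1B2 was lower with a large embryo in both tissues, short of the threshold. In caruncular tissue it ran from −2.10 to −0.85 (median −1.55) with a large and from −0.84 to 0.09 (median −0.43) with a small embryo, so that the groups met without overlapping. The difference was −1.03 (SE 0.22, adjusted p = 0.479), the smallest unadjusted p of the members in that tissue. In intercaruncular tissue it was −0.69 (SE 0.20, adjusted p = 0.0813). KCNK7 in intercaruncular tissue ran from −0.38 to 1.31 (median 0.91) with a large and from −0.12 to 0.24 (median 0.03) with a small embryo, so that the groups overlapped. It was 0.75 higher with a large embryo (SE 0.24, adjusted p = 0.0976), and it passed without the late-scanned pregnant cow, with an adjusted p of 0.00165. In caruncular tissue KCNK7 with a small embryo, at −0.52 to 0.25, lay inside the range with a large embryo, −0.83 to 1.21.

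Fertile and sub-fertile pregnant cows, 6 against 6, did not differ past the threshold in any member. At an adjusted p under 0.05, 0.0% of all tested probes passed in caruncular and 0.0477% in intercaruncular tissue. At an unadjusted p under 0.05, 9 members (14.1%) in each tissue were below it, against 13.8% and 13.6% of all tested probes. KCNIP4 in intercaruncular tissue ran from 0.15 to 0.78 (median 0.47) in fertile and from −1.36 to 0.32 (median −0.54) in sub-fertile cows. The groups overlapped slightly, and the difference of 1.07 (SE 0.26, 95% interval 0.51 to 1.62) had an adjusted p of 0.155. The labels cross, with 3 large-embryo cows fertile and 4 sub-fertile.

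**Figure D5:**
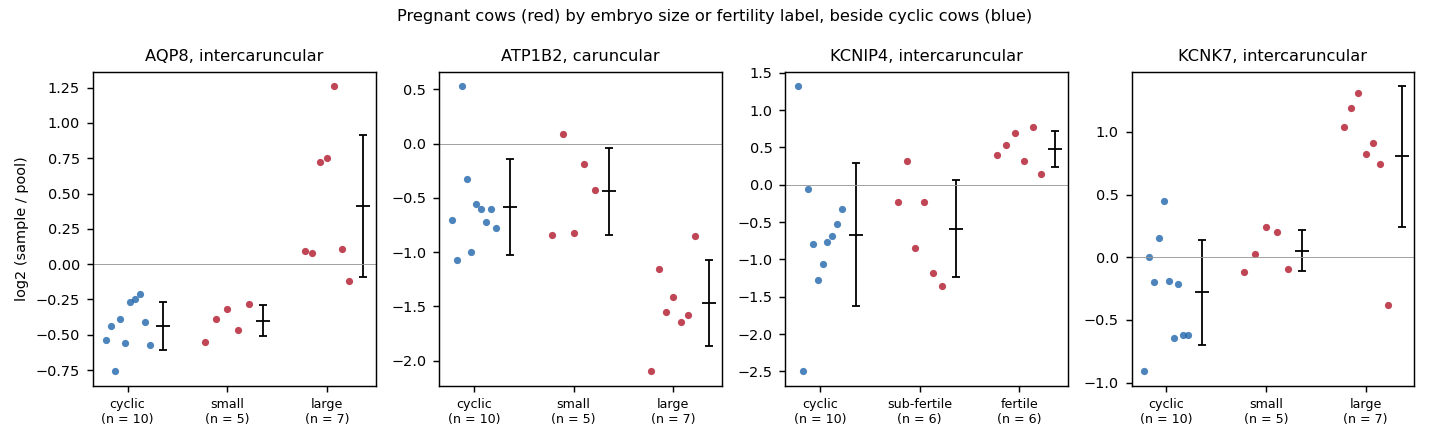
Dots give the level (log2 of sample over pool) in single cows for AQP8, ATP1B2 and KCNK7 by embryo size and for KCNIP4 by fertility label (pregnant cows in red), beside the 10 cyclic cows in blue, with bars for the mean ± SD. Intercaruncular AQP8 with a small embryo lies between −0.55 and −0.28, inside the cyclic range, while 6 of 7 large-embryo values are above 0, and none of the differences by size or fertility passed the threshold.

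The genes that work with these channels were described from lists of partners. Of 13 tested regulators of the epithelial sodium channel, PRSS8, a protease that activates the channel, rose in pregnant cows in both tissues, by 0.79 in caruncular (adjusted p = 0.00736) and 0.86 in intercaruncular tissue (adjusted p = 0.0062). USP2, a deubiquitinase, fell by 0.70 in caruncular tissue (adjusted p = 0.00016), and no other regulator passed. Between the tissues NEDD4, a ubiquitin ligase, was higher in caruncular tissue (0.85), and ST14, USP2 and SGK2 were lower (−0.77, −0.70 and −1.22). None of 5 tested sodium pump modulators and none of 10 tested chloride channels and cotransporters outside the CLC family passed with pregnancy in either tissue. Of those 10, CLIC4 was higher (0.95) in caruncular than in intercaruncular tissue, and 1 other gene was lower. Of 15 tested intracellular calcium channels and pumps, MCOLN1, a lysosomal channel, was lower in intercaruncular tissue of pregnant cows (−0.94, adjusted p = 0.0351). Of 8 other ion channels, ACCN3, an acid-sensing channel, was higher in caruncular tissue of pregnant cows (0.71, adjusted p = 0.000722).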

How the data were processed

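Per the file headers, the authors extracted the scanned arrays with Agilent Feature Extraction 9.5.3.1, with background subtraction, flags on outlying spots and LOWESS dye normalization. The deposited log10 ratios of Cy5 over Cy3 and the deposited signal intensities of each spot were used, and the authors' deposited log2 value table served as an alternative. Here the log10 ratios were taken to log2, averaged per probe and centred on each array's median, which was 0 already. The arrays of 4 repeated caruncular samples were averaged. Of 48 arrays, 68.8 to 84.0% of spots were well above background, and the number of cows limits precision.

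Pregnancy, embryo size and fertility were tested within each tissue, and tissue and interaction on within-cow differences, with limma 3.58.1 (lmFit, eBayes; moderated SE) in R 4.3.3, Benjamini-Hochberg adjusted over 14690 probes. For the interaction, embryo size and fertility no fold was required. Because each cow gave both tissues, the cow pairs the samples. The fits were tested on simulated data. Alternatives were normexp (offset 50) with loess, other filters, centring and fold conditions, the value table, the methods' t-test, slide or scan date as a block, single arrays of repeated samples, all 44 samples in 1 fit, the other label as a covariate, and cows left out. Those that leave out the 2 late-scanned cows, and centring on the tested probes, were chosen after the data were seen.

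Some genes are not reported here by name and enter counts only. Of the others, named were members past a threshold (12 for tissue) and a set list of epithelial and myometrial transport genes. No gene had more than 1 tested probe. The members and lists were chosen with earlier results of these data known. Symbols are the array's. Of the 168 probes, 117 matched a RefSeq gene (ARS-UCD2.0) by gene number or accession, 113 under the same symbol. Python 3.11.15, pandas 2.3.3, numpy 2.4.6 and matplotlib 3.10.9 were used.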

Additional observations from a re-analysis of the deposited data

Results flagged for a closer look

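Of the named members, 25 sets of values of 10 cyclic cows were checked for a cow far from the others, and 2 were found, where chance alone would give about 1 in 20. KCNIP4 in cyclic caruncular tissue had 1 cow at −2.64, with the next lowest at −1.14. In the late-scanned cyclic cow, whose arrays stood apart, the within-cow tissue difference of TRPM7 was −0.26 where the next lowest cyclic cow was 0.67. KCNS3 was the member whose pregnancy effect differed between the tissues by test, by 1.18 (SE 0.29, adjusted p = 0.0463 by limma).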

How the results depend on the processing

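The main counts of members were 10 (pregnancy, caruncular), 9 (pregnancy, intercaruncular), 12 (tissue), 1 (interaction) and 0 for embryo size and fertility in each tissue. Without the fold condition the first 3 became 22, 22 and 42, where 26.9%, 20.3% and 70.4% of all tested probes passed. All 3 became 0 under a fixed slide block, as did tissue with the scan date as a fixed block. Over all probes those fits left 58, 128 and 1, and 4 with the scan date, which few mixed slides allow. With the slide as a random block 8 caruncular and 4 intercaruncular members passed, the latter without KCNE3, KCNJ16, CFTR and TRPC4 and with KCNJ2 gained. Of the named members, KCNIP4 in caruncular tissue reversed under a fixed slide block (−0.59). For tissue, KCNQ1 (0.19) and TRPM7 (−0.17) reversed under both the slide and the scan date as fixed blocks. Dropping the pairing of tissues within a cow (no replicate block) kept all 12 tissue members and took the interaction to 0, as did no filter. The interaction count was 4 without the late-scanned cyclic cow, 4 without both late-scanned cows and 2 without the pregnant one. Embryo size in intercaruncular tissue gave 1 with normexp and loess, 2 with the slide as a random block, 1 with fertility as a covariate and 3 without both cows. Leaving out each pregnant cow in turn gave 0 to 3 there, 3 without the late-scanned one (AQP8, CLCN4, KCNK7) and 1 without a fertile large-embryo cow (CACNB2), and 0 to 0 in caruncular tissue. Fertility in intercaruncular tissue gave 1 without both cows. With normexp and loess, KCNJ16 between tissues was under the fold required (−0.52). Except for the fixed blocks and the fits without the fold condition, counts under the alternatives are given without the share of all tested probes. They therefore do not show a change particular to the members. The cause of these shifts was not tested. Of the named members' values under the alternatives, 346 kept direction and side of the threshold, 46 no longer passed and 5 reversed. The number of cows per group limits the precision of these values.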
